A study of Homo sapiens with 4 samples.

Results

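The genes described here take choline into the cell and build it into phosphatidylcholine, the main phospholipid of animal cell membranes. They are the choline transporter-like genes SLC44A1, SLC44A2 and SLC44A4, the choline kinases CHKA and CHKB, the cytidylyl transferases PCYT1A and PCYT1B, the phosphotransferases CHPT1 and CEPT1, and the methyltransferase PEMT. The rule that takes them uses gene symbols and no measured value, though it was written with earlier results of these data known. All 10 were measured, among 19583 genes in all. Every probe set annotated to one of these symbols alone was taken, which gave 26 probe sets of the 39464 that name a single gene and have a value in every array. RNA came from LNCap, a human prostate cancer cell line that responds to androgen, after infection with a lentivirus carrying the ETS transcription factor ERG together with red fluorescent protein (LNCap ERG, 2 Affymetrix arrays) or with a control lentivirus for the fluorescent protein alone (LNCap Vector, 2 arrays). Both groups were grown in the same medium and left overnight after seeding, before RNA was taken. The sources do not say if the paired arrays of a group stem from separate infections, clones or dishes. The p-values therefore reflect array-to-array spread, possibly technical. The study also profiled metabolites of these cells, choline, CDP-choline and glycerophosphocholine among them, and the comparison asks whether the RNA of the enzymes and transporters that handle these metabolites differed.

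In the CDP-choline pathway, choline enters through transporters in the plasma membrane, is phosphorylated by a choline kinase, is activated to CDP-choline by a cytidylyl transferase, and is joined to diacylglycerol by a phosphotransferase. The cytidylyl transferase step usually sets the rate of the pathway. PEMT makes phosphatidylcholine by another route, by methylating phosphatidylethanolamine, and is best known for its role in liver. Raised phosphocholine and raised choline kinase are a known feature of many tumours, prostate cancer included.

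ERG binds DNA at sites with a GGAA core, so the promoter windows of these genes, from RefSeq (GRCh38.p14, 250 bases before to 50 after a start site), were searched on both strands for the ETS motif CCGGAAG. The table holds 15 windows of 9 of the genes, and 3 windows (20% of 15) held the motif, against 10.3% of all 35116 windows. They belong to CHKB, PCYT1A and the window of CEPT1 at chr1:111139599-111139898. The windows of CHKB and PCYT1A are shown because their matches lie nearest the start site. Capitals mark the motif, which in PCYT1A is read on the opposite strand.
CHKB (chr22:50582800-50583099, minus strand): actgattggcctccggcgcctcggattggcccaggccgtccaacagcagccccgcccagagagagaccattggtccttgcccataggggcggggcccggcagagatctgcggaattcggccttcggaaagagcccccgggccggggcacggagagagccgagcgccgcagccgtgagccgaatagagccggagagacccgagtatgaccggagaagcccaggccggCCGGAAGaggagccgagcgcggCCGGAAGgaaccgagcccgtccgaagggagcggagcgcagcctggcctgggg
PCYT1A (chr3:196287677-196287976, minus strand): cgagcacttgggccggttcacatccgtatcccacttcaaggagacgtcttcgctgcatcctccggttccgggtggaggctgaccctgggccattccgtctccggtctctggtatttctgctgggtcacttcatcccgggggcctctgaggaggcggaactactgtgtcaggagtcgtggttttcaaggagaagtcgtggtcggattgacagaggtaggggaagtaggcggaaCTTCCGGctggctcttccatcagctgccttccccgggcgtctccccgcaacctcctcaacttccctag
The CHKB window held 2 matches, which begin at positions -24 and -2 from the start site, and the PCYT1A window held 1, which begins at -18. A match is a description of the sequence and not evidence that ERG binds there.

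The deposited values are normalised probe set intensities, and differences between groups are given on the log2 scale, LNCap ERG over LNCap Vector. Medians over all probe sets were 14.0 to 14.4 and the arrays correlated at r = 0.996 to 0.998. The number of arrays limits the precision. ERG itself showed no rise in LNCap ERG. Its brightest probe set read 10.7 and 9.79 in the LNCap ERG arrays, against 12.0 and 10.0 in the LNCap Vector arrays, and its 4 probe sets had log2 fold changes of -0.24 to 0.12. The sources do not tell if the viral transcript is seen by these probes, so the groups are named by their labels, and every direction below is that of the labels. The 8 measured LNCaP and luminal prostate markers of a list of 10 were bright in both groups, with log2 means of 9.87 to 12.8 in LNCap ERG and 9.86 to 13.0 in LNCap Vector. Their summed intensity was 27923 and 28008 in LNCap ERG, against 28477 and 29064 in LNCap Vector. Of their log2 fold changes, 5 lay above 0 and 3 below, the lowest being KLK2 at -0.29. Without overlap, 3 were lower in LNCap ERG (KLK2, KLK3 and TMPRSS2) and 1 higher (FOLH1). Over all genes, 19.1% lay lower and 21.7% higher in that way. Genes of other organs, picked as unlikely to be used in prostate cells, had a 95th percentile of 4.52 (an intensity of 23.0), and values up to this level are called dim. All 4 ERG probe sets were dim in both groups, at log2 means of 2.66 to 3.45, so their fold changes give no size. Of 11 measured markers of other cell types, 9 were dim. COL1A1, a fibroblast collagen, and VWF, an endothelial protein, were not, and the summed intensity of the 11 was 601 and 567 in LNCap ERG, against 468 and 469.8 in LNCap Vector. COL1A1 was the brightest of the 11, at log2 means of 8.74 in LNCap ERG and 8.36 in LNCap Vector, and VWF read 6.10 and 5.80. The sum therefore rests mostly on the brightest probe set of COL1A1. COL1A1 has 5 probe sets and VWF 2, and the others of each are not given here. Of the 11 log2 fold changes, 6 lay above 0 and 5 below. The part of these markers in the results below was not tested.

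None of the 10 genes passed limma's test, and their group means differed by 1.15-fold at most. In bulk RNA, a change in the share of cells that express a gene and a change in RNA per cell cannot be told apart. Over all genes, 0.0102% passed an adjusted p of 0.05 (2 genes, neither in this pathway). At an unadjusted p under 0.05, 0 of the 10 were higher and 0 lower, against 5.61% of all genes higher and 4.11% lower. Both LNCap ERG arrays lay above both LNCap Vector arrays for 3 genes (CHKB, PCYT1A and SLC44A1) and below them for 2 (PCYT1B and CHPT1), where 21.7% of all genes lay above and 19.1% below. The median log2 fold change of the 10 was 0.044, with 7 above 0 and 3 below, beside a median of 0.0078 over all genes. For the 9 genes that were not dim, the 95% intervals of the log2 fold change ran from -0.27 at the lowest to 0.41 at the highest, or 0.828-fold to 1.33-fold. A 2-fold difference lay outside the interval of each of them.

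**Figure D1:**
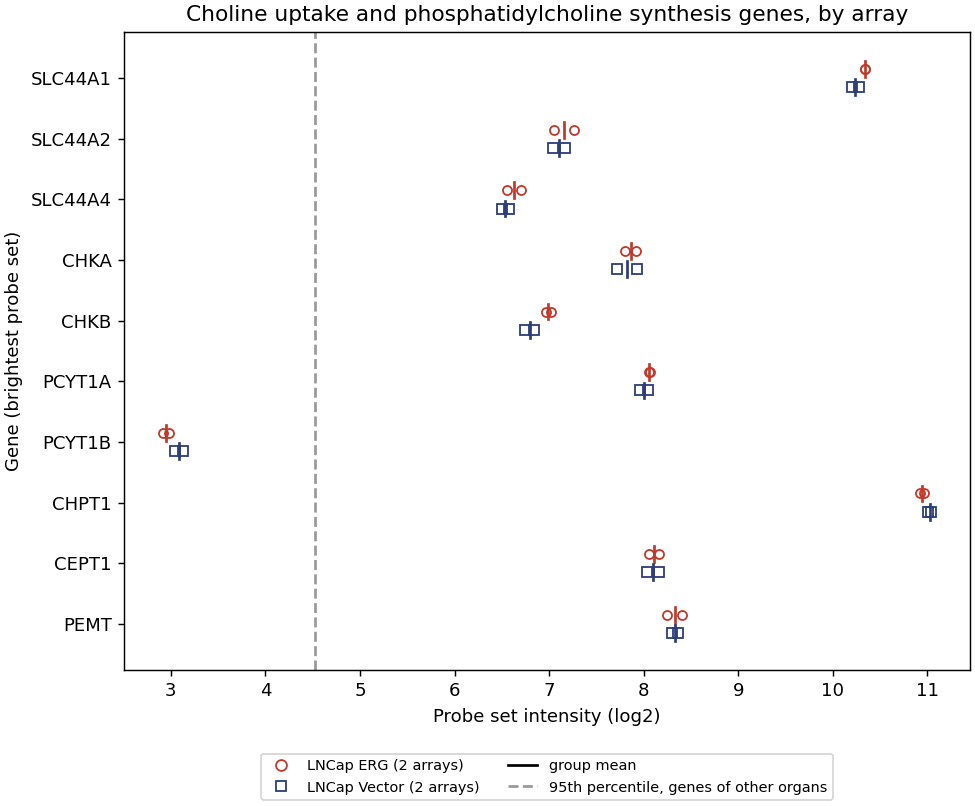
Log2 probe set intensity (x axis) of each gene's brightest probe set (y axis, ordered by step of the pathway). Circles are the 2 LNCap ERG arrays, squares the 2 LNCap Vector arrays and ticks their means, and the dashed line marks the dim level, 4.52; only PCYT1B lies to its left, and the group means of each gene lie close together, CHKB being farthest apart at 0.20.

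Of the transporters, SLC44A1, which carries choline across the plasma membrane and the mitochondrial membrane, was bright. Its brightest probe set read 1298.2 and 1298.1 in the LNCap ERG arrays, against 1182 and 1237 in the LNCap Vector arrays. The groups did not overlap, and the log2 fold change was 0.10 (standard error 0.08, 95% interval -0.09 to 0.30, adjusted p = 0.71).

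Of the other 5 probe sets of SLC44A1, 4 had log2 fold changes below 0. The third in brightness read 44.3 and 44.1 in LNCap ERG, against 62.6 and 50.9 in LNCap Vector, a log2 fold change of -0.35 (standard error 0.12, 95% interval -0.66 to -0.045, adjusted p = 0.54 over all probe sets). It was the 1 of the 26 probe sets at an unadjusted p under 0.05, a threshold that 8.7% of all probe sets reached. The fourth and the fifth were also lower in both LNCap ERG arrays, with log2 fold changes of -0.16 and -0.31, and the fifth was dim. The second had -0.11 with overlapping groups. The dimmest had 0.16, with both LNCap ERG arrays above both LNCap Vector arrays. Within each array, the log2 ratio of the third probe set to the brightest was -4.87 and -4.88 in LNCap ERG, against -4.24 and -4.60 in LNCap Vector, so the 2 probe sets differed in their change by 0.45. With 2 arrays a group an exact permutation test cannot give a p below 0.333, and none was run on this ratio. Where on the SLC44A1 transcript each probe set lies is not given in the sources used here.

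SLC44A2, a related transporter also found in mitochondria, read 154 and 132 in LNCap ERG, against 144 and 131 in LNCap Vector. The groups overlapped (log2 fold change 0.05, standard error 0.11, 95% interval -0.22 to 0.33, adjusted p = 0.92). Its other probe set had -0.06, also with overlap. SLC44A4, which carries thiamine pyrophosphate in the colon and has been tied to choline uptake, is found in many epithelia, prostate among them. It read 93.7 and 104 in LNCap ERG, against 90.4 and 95.6 in LNCap Vector, with overlap (log2 fold change 0.09, standard error 0.09, 95% interval -0.14 to 0.32, adjusted p = 0.80). Its second probe set was dim.

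The choline kinases phosphorylate choline and so hold it in the cell. CHKB, the form best known for its role in muscle, had the largest log2 fold change of the 10 genes. It read 125 and 129.8 in the LNCap ERG arrays, against 107 and 115 in the LNCap Vector arrays, with no overlap. The log2 means were 6.99 ± 0.04 and 6.79 ± 0.07 (SD, n = 2 in each group). It was 1.15-fold higher in LNCap ERG as measured, or 0.20 on the log2 scale (standard error 0.08, 95% interval -0.0094 to 0.41, adjusted p = 0.53), at percentile 89.7 of the log2 fold changes of all genes. CHKB has 1 probe set of its own here, so no other probe set can be set beside it.

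CHKA, the kinase most often raised in tumours, did not separate the groups. It read 242 and 224 in LNCap ERG, against 211 and 244 in LNCap Vector (log2 fold change 0.04, standard error 0.11, 95% interval -0.23 to 0.30, adjusted p = 0.95). Its second probe set read 154 and 124 in LNCap ERG, against 113 and 125 in LNCap Vector, where the first LNCap ERG array lay above the other 3 (log2 fold change 0.22, standard error 0.13, 95% interval -0.12 to 0.55, adjusted p = 0.70 over all probe sets). Both CHKA probe sets are of a kind whose probes may match more than 1 transcript, as are those used for CHPT1 and PEMT.

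PCYT1A, the widely used cytidylyl transferase, read 266 and 269 in LNCap ERG, against 249 and 265 in LNCap Vector. The groups did not overlap but lay close (log2 fold change 0.06, standard error 0.08, 95% interval -0.14 to 0.26, adjusted p = 0.86). Its second probe set read 32.7 and 29.6 in LNCap ERG, against 29.7 and 27.0 in LNCap Vector, with a log2 fold change of 0.14, and the third was dim. PCYT1B, a form known from brain and gonads, was dim at each of its 3 probe sets. The brightest read 7.53 and 7.92 in LNCap ERG, against 8.72 and 8.26 in LNCap Vector. These values lie under the level of genes of other organs, so the measured -0.14 on the log2 scale (adjusted p = 0.64) gives no size.

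CHPT1, which joins CDP-choline to diacylglycerol in the Golgi, was bright at its main probe set. It read 1948 and 1997 in LNCap ERG, against 2063 and 2107 in LNCap Vector. The groups did not overlap, and the log2 fold change was -0.08 (standard error 0.08, 95% interval -0.27 to 0.11, adjusted p = 0.77). Its other probe sets, neither of them dim, had -0.09 and -0.06, with overlapping groups. CHPT1 was thus below 0 at all 3 probe sets, and none passed. CEPT1, which does the same in the endoplasmic reticulum and also uses CDP-ethanolamine, read 266 and 287 in LNCap ERG, against 263 and 287 in LNCap Vector. The log2 fold change was 0.01 (standard error 0.09, 95% interval -0.22 to 0.24, adjusted p = 0.99), and its other 2 probe sets were dim.

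PEMT read 339.6 and 304 in LNCap ERG, against 329 and 316 in LNCap Vector. The LNCap Vector arrays lay between the LNCap ERG arrays, and the log2 fold change was -0.0044 (standard error 0.09, 95% interval -0.24 to 0.23, adjusted p = 1.0).

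Over all 26 probe sets, 17 were not dim in either group and 9 were dim in both. None passed an adjusted p of 0.05 when all probe sets were tested together, where 0% of all probe sets passed. The LNCap ERG arrays lay above the LNCap Vector arrays at 5 and below them at 5, against 18.9% and 20.1% of all probe sets. The median log2 fold change of the 26 was -0.031, beside a median of -0.0014 over all probe sets. It was 0.044 by the brightest probe set per gene, so the sign of the list's median depends on which probe sets are taken. SLC44A1 alone gave 6 of the 26, of which 4 were below 0.

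**Figure D2:**
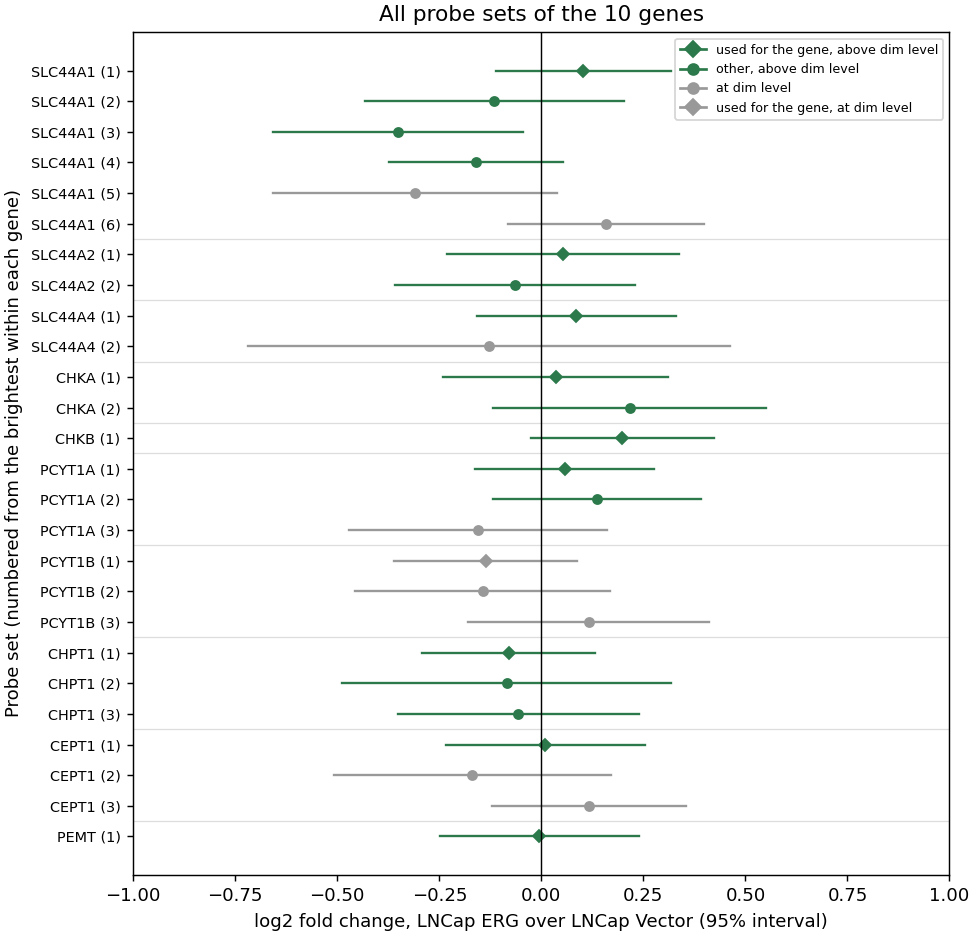
Log2 fold change of LNCap ERG over LNCap Vector (x axis) with its 95% interval from limma for each of the 26 probe sets (y axis, numbered from the brightest within a gene). Diamonds are the probe sets used for the gene, circles the others and grey the dim ones; the third SLC44A1 probe set, at -0.35, is the 1 whose interval does not include 0.

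**Figure D3:**
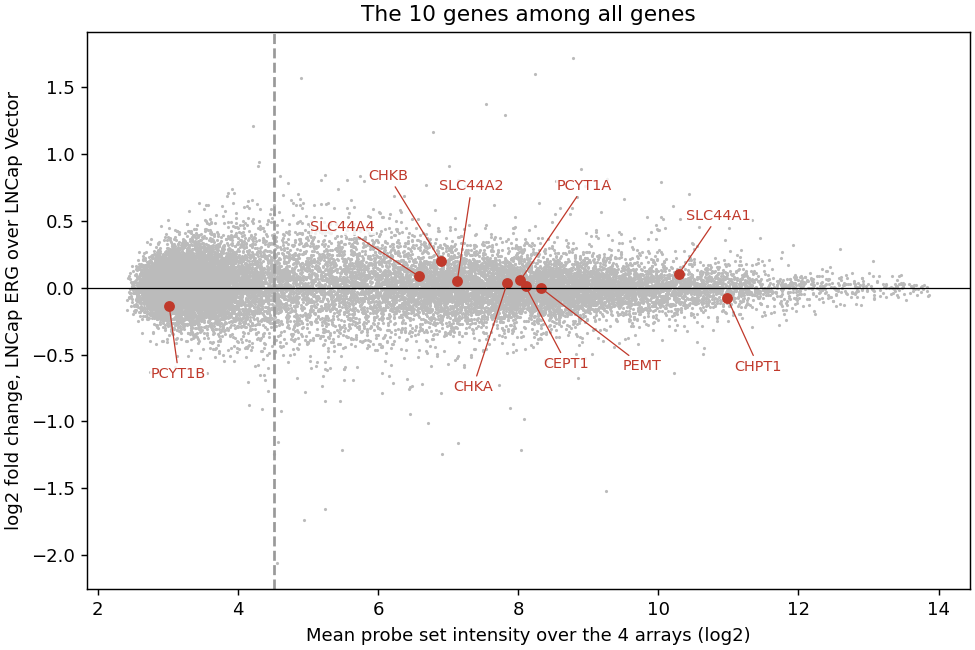
Log2 fold change of LNCap ERG over LNCap Vector (y axis) against the mean log2 intensity over the 4 arrays (x axis) for all 19583 genes (grey) and the 10 genes of choline uptake and phosphatidylcholine synthesis (red). The dashed line marks the dim level, 4.52; the 10 lie between -0.14 (PCYT1B) and 0.20 (CHKB), within the band of the other genes.

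Around these genes, 9 lists of related genes held 63 names, of which 57 were measured. None of the 57 passed the adjusted threshold. At an unadjusted p under 0.05, 4 of the 57 were higher in LNCap ERG and 3 lower, near the 5.61% and 4.11% of all genes. Their median log2 fold change was 0.0078, and 29 lay above 0 and 28 below. The genes named are the pair with the smallest p of each list.

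Among 6 measured other choline transporters, SLC5A7, the high-affinity transporter of cholinergic neurons, had a log2 fold change of 0.40 (adjusted p = 0.36) but was dim in both groups, at log2 means of 3.57 ± 0.09 in LNCap ERG and 3.17 ± 0.08 in LNCap Vector (SD, n = 2 in each group). Its other probe set had -0.09. FLVCR2, a choline carrier of the blood-brain barrier, had -0.32 (adjusted p = 0.55), with its LNCap ERG mean dim. In the ethanolamine branch, 7 genes had a median log2 fold change of 0.0084. There the cytidylyl transferase PCYT2 had -0.19 (adjusted p = 0.68), and ETNK2, an ethanolamine kinase, had 0.23 while dim in both groups.

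Among 11 measured genes that supply diacylglycerol, LPIN1, a phosphatidate phosphatase that yields the diacylglycerol used by CHPT1 and CEPT1, had the lowest log2 fold change. Its log2 values were 7.84 and 8.15 in LNCap ERG, against 8.46 and 8.42 in LNCap Vector, with no overlap (log2 fold change -0.45, standard error 0.12, 95% interval -0.76 to -0.13, adjusted p = 0.39). All 3 LPIN1 probe sets had negative log2 fold changes, of -0.45 to -0.23. AGPAT1, an acyltransferase earlier in that supply, had 0.22 (adjusted p = 0.52). Of 4 measured genes that put acyl chains back on lysophosphatidylcholine, LPCAT1 had 0.18 (adjusted p = 0.61) and LPCAT4 had -0.02 (adjusted p = 0.96). The 4 LPCAT4 probe sets ran from -0.02 to 0.12.

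Of 13 genes of phosphatidylcholine breakdown, the phospholipase PLA2G4A had -0.32 (adjusted p = 0.37) and the lysophospholipase PNPLA7 had 0.21 (adjusted p = 0.51), both dim in both groups. The second PNPLA7 probe set had -0.11. Of 5 sphingomyelin genes, SMPD2, a neutral sphingomyelinase, had -0.28 (standard error 0.08, adjusted p = 0.43), at 6.32 ± 0.08 in LNCap ERG and 6.60 ± 0.04 in LNCap Vector (SD, n = 2 in each group). SGMS2, which moves the phosphocholine of phosphatidylcholine onto ceramide, had -0.40 (standard error 0.17, adjusted p = 0.53), and its second probe set, dim, had 0.09. Both lay lower in both LNCap ERG arrays, without passing.

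BHMT, which uses betaine made from choline, had 0.41 (adjusted p = 0.32) and DMGDH, which oxidises dimethylglycine, had -0.18 (adjusted p = 0.63), and both were dim in both groups. The second BHMT probe set had -0.11. Among the phosphatidylcholine transfer proteins, PCTP had -0.14 (adjusted p = 0.64) and STARD7 had 0.07 (adjusted p = 0.80). Where the choline pathway meets acetylcholine, the choline acetyltransferase CHAT was dim in all arrays (log2 fold change -0.01, adjusted p = 0.99) and ACHE, also dim, had -0.02 (adjusted p = 0.98), and its second probe set had 0.32. BCHE, which splits choline esters, had log2 values of 8.92 and 9.16 in LNCap ERG, against 7.34 and 7.53 in LNCap Vector (log2 fold change 1.60, adjusted p = 0.086).

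**Figure D4:**
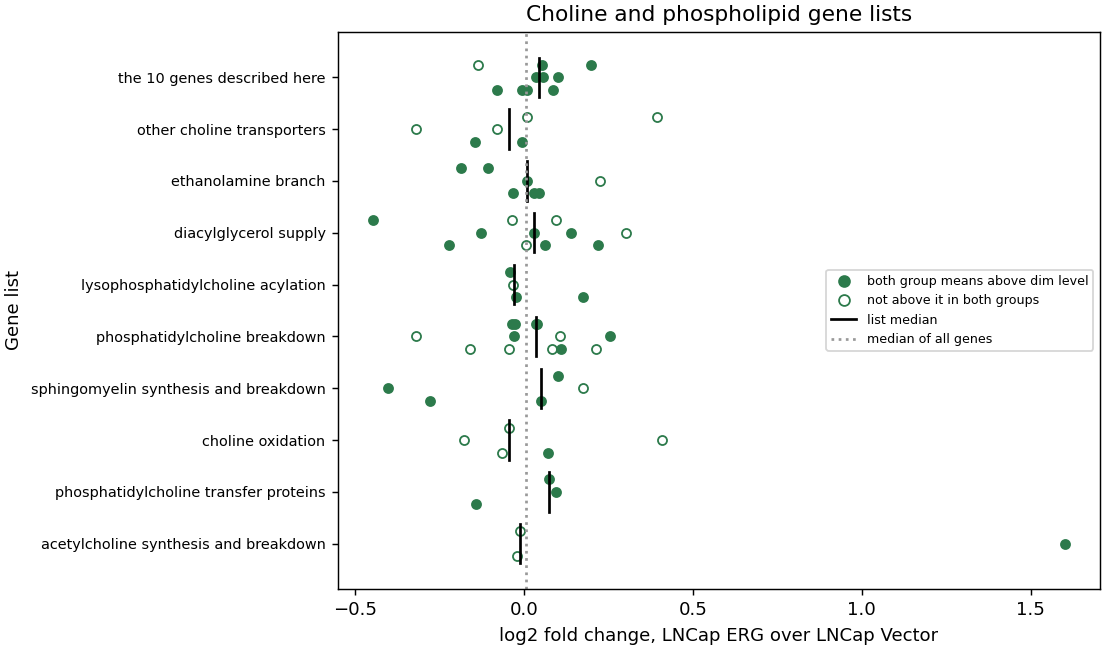
Log2 fold change of LNCap ERG over LNCap Vector (x axis) of the measured genes of each list (y axis). Filled points have both group means above 4.52, open points do not, short lines are list medians and the dotted line is the median of all genes, 0.0078; BCHE, at 1.60, lies far from the other points.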

How the data were processed

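RNA of 4 arrays was compared, 2 for each label. The authors analysed the scans with dChip, normalised them with RMAexpress and deposited probe set intensity values; the sources used here give neither versions nor the steps within RMAexpress. The values were read as linear, since they reach 15344, and were taken to log2. Of 51965 probe sets, 39466 name 1 gene in the platform annotation, 838 several and 11661 none; only the first kind was used, and 2 that lack a value in some array were dropped. A gene was represented by its brightest probe set over the 4 arrays.

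The contrast was fitted with limma 3.58.1 (lmFit, eBayes; R 4.3.3) over all 19583 genes, and again over all 39464 probe sets, with Benjamini-Hochberg adjustment, a threshold of 0.05 and 2 residual and 3.23 prior degrees of freedom. Gene values come from the fit over genes, and values of other probe sets from the fit over probe sets. Plots were drawn with matplotlib 3.10.9 in Python 3.11.15. The fit was tested on simulated data, and the outcome of that test is not given here. Members, taken by symbol, and lists were chosen with earlier results of these data known. The genes named are the 10 members, the pair with the smallest p of each other list, ERG, BCHE and CHAT. KLK2, KLK3, TMPRSS2, FOLH1, COL1A1, VWF, CHKB-DT and CPT1B were named after their values were seen. Alternatives were other moderation, a filter on dim genes, other probe sets per gene, renormalisation, an offset of 16, the methods' t-test, a replicate block and single arrays left out. Arrays have no read depth.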

Additional observations from a re-analysis of the deposited data

How the results depend on the processing

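None of the 10 genes passed under any of the 14 alternatives run, where the smallest adjusted p was 0.26 (CHKB, without genes below the median intensity). At an unadjusted p under 0.05, the count was 1, CHKB, without those genes, with probe sets averaged per gene, with quantile normalisation again, with housekeeping centring and with the offset of 16. It was 0 under the other settings that kept all 4 arrays. In the main fit, 5.61% of all genes lay higher and 4.11% lower at that threshold. The shares under the alternatives are not given here. The count of genes of the other lists that passed was 1, BCHE, with trended and robust moderation, without the dimmer genes, with the mean of probe sets and with the offset. Over all genes, 1 passed as higher and 1 as lower in the main fit. The counts were 48 and 41 with trended and robust moderation, and 31 and 23 of 9792 genes without the dimmer genes. With the mean of probe sets they were 6 and 8, and with the offset 17 and 10. The median log2 fold change of the 10 was -0.0097 with the mean of probe sets, and 0.018 to 0.088 with single arrays left out (0.022, 0.018 and 0.088 without the first LNCap ERG, the first LNCap Vector and the second LNCap Vector array). With the mean of probe sets the sign turned for SLC44A1 (-0.11), SLC44A4 (-0.021), CEPT1 (-0.014) and SLC44A2 (-0.0054), and PEMT turned to 0.0045 with quantile normalisation and 0.0018 with housekeeping centring. With single arrays left out, CHKA ran from -0.069 to 0.14, CEPT1 from -0.053 to 0.073, PEMT from -0.084 to 0.075 and SLC44A2 from -0.057 to 0.16, while SLC44A4 ran from 0.012 to 0.16, PCYT1A from 0.012 to 0.10, SLC44A1 from 0.070 to 0.14 and CHKB from 0.15 to 0.25. None of the 10 passed in the main fit, so no sign change could concern a gene that passed.

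The labels give samples of the same replicate number only that number in common, and the sources do not say if they were handled together. The deviations of the pairs correlated at 0.077 across genes, which does not settle whether the arrays were paired. With the replicate block, 0 of the 10 genes passed, as without it. Over all genes, 0 passed as higher and 0 as lower with the block, where 2 passed without it. Leaving out an array leaves 1 residual degree of freedom, and the fit then assumes that the lone array of a group varies like those of the other. CHKA and PEMT have no plain probe set and had no value in that setting, and PCYT1B had none without the dimmer genes.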

Other observations

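Transcripts that neighbour CHKB were looked at after the values of CHKB had been seen. CHKB-DT, its divergent transcript, read 138 and 137 in the LNCap ERG arrays, against 188 and 153 in the LNCap Vector arrays, with no overlap and in the opposite direction to CHKB (log2 fold change -0.30, standard error 0.12, 95% interval -0.61 to 0.0052, adjusted p = 0.62 from limma over all probe sets, those naming several genes or none included). A pair of probe sets names both CPT1B and the CHKB-CPT1B read-through transcript and was not counted for CHKB. The dimmer of them read 67.8 and 64.0 in LNCap ERG, against 57.3 and 53.5 in LNCap Vector (log2 fold change 0.25, standard error 0.09, adjusted p = 0.60). The brighter read 86.2 and 87.6 in LNCap ERG, against 80.9 and 92.8 in LNCap Vector, with overlap (log2 fold change 0.0036, adjusted p = 1.0). None of these passed the adjusted threshold, and whether the array reads strand at this locus was not tested.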
